A study of Homo sapiens with 4 samples.

Results

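The stop codon peaks described here are the m6A peaks whose summit lay within 200 nt of spliced transcript on either side of a stop codon. Each protein-coding gene was represented by its GENCODE transcript with the longest coding sequence (CDS), and 18738 genes had such a transcript with 2 or more exons and an annotated stop codon. By this rule, 4054 of the 24607 peaks of m6A IP replicate 1 and 2924 of the 19318 peaks of m6A IP replicate 2 were stop codon peaks. They lay in 3863 and 2868 genes, or 20.6% and 15.3% of the eligible genes. The peaks were then divided by whether the stop codon was in the last exon and by how many nt of the last exon preceded it, which is the distance from the last exon-exon junction to the stop codon. A range such as 100 to 200 nt includes its lower and not its upper limit.

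The peaks came from meRIP-seq of OE-19 cells, an established cell line of adenocarcinoma of the esophagogastric junction (AEG). This assay enriches RNA fragments bearing N6-methyladenosine (m6A) with an antibody before sequencing. The series held 4 samples, with 2 replicates pulled down with anti-m6A and 2 input replicates without antibody, and no treatment or change of genotype is named for any of them. A peak list of each IP replicate was analysed, and no peak list of the input was analysed here. Cells were UV-fixed and lysed according to the labels, whereas the methods of the study start from fragmented total RNA. All values come from 1 cell line, and the labels do not say whether the replicates were separate cultures. The lists hold no expression values, so neither the labelled cell type nor the depth could be checked. With 1 group of 2 replicates, no test over samples can be made. Values are therefore given for each list, and intervals, which are 95% Wilson intervals for shares and Newcombe intervals for differences, cover counting error only.

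In mRNA, m6A is written by a complex built around METTL3 and METTL14, mostly at adenines within motifs such as GGAC, and it is known to gather around stop codons and in long exons. During splicing, the exon junction complex is placed just upstream of each junction, and it is known to keep the writer complex away from nearby RNA. The last exon has no junction downstream, and in most genes it is the longest exon and holds the stop codon. A stop codon well upstream of the last junction is the classical signal for nonsense-mediated decay, the pathway that destroys mRNAs on which a ribosome stops early.

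To show sequence near these summits, the GGAC nearest to the replicate 1 summit was taken from strong peaks of each class where one lay within 50 nt. Each line gives 30 bases of the GENCODE version 44 transcript with their hg38 position, 5′ to 3′, with GGAC in capitals, and the classes follow in the order of the distance from the last junction to the stop codon.
VSTM5, last junction 41 nt before the stop codon, chr11:93820368-93820397, minus strand: aaagctagtattaGGACtcgcgctaagttc
RALGPS2, 27 nt, chr1:178916396-178916425, plus strand: tacgtgagcatgaGGACctgataaaagagc
MARCHF9, 332 nt, chr12:57758706-57758735, plus strand: cccaggaactcacGGACgggccccacctct
NALF1, 287 nt, chr13:107170656-107170685, minus strand: ggctcctgtcacaGGACatcgctcacagtg
WDR91, 162 nt, chr7:135185966-135185995, minus strand: ggtgactggaatgGGACccacgtggagtag
MAP3K9, 482 nt, chr14:70730583-70730612, minus strand: cgcccagcaacctGGACtcctgctttgcta
MYO9A, 461 nt, chr15:71826658-71826687, minus strand: gagaccccagaggGGACagtcatgtctggc
LPCAT1, last junction 2278 nt after the stop codon, chr5:1463597-1463626, minus strand: gcccctcccgcgtGGACatcaccgccatga
In VSTM5 and RALGPS2, whose last junction is close, the adenine of the motif lay in the 3′ UTR, 189 and 54 nt past the start of the stop codon. In MAP3K9 and MYO9A, whose last exon holds a long stretch of CDS, it lay before the stop codon, at −215 and −90 nt. In MARCHF9 and NALF1 it lay at −174 and −171 nt, and in WDR91 at 173 nt. Counted from the replicate 1 summit, it lay at 3 nt in VSTM5, −40 nt in RALGPS2, −38 nt in NALF1 and 34 nt in MYO9A. In RALGPS2 and MYO9A no GGAC lay within 50 nt of the replicate 2 summit.

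The position of summits near exon edges is given before the comparisons of classes, although it was added after summit positions had been seen. The narrowest peaks were 123 bp wide in replicate 1, where 890 peaks had exactly this width, and 141 bp wide in replicate 2, where 1134 peaks had it. By default the peak caller extends each read along the genome to an estimated fragment length and reports no peak narrower than that length. Among stop codon peaks with the stop codon in the last exon, the densest bin of 20 nt began 120 nt after the last junction in replicate 1, at 7.74 summits per kb of window bases. In replicate 2 it began at 140 nt, with 7.96 summits per kb, so that the densest bin moved with the smallest width of the list.

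A lack of summits near exon edges was also present where there is no stop codon and where there is no junction. In last exons of 600 nt or more, summits outside the stop codon windows numbered 0.0970 per kb in the first 100 nt and 1.17 per kb from 150 to 400 nt in replicate 1, and 0.0673 and 1.21 per kb in replicate 2. At the last 100 nt of long internal exons the density was 0.0878 and 0.0865 per kb, against 1.43 and 1.45 per kb farther in. At transcript starts, which carry no junction, it was 0.229 and 0.107 per kb in the first 100 nt of long first exons, against 1.02 and 0.787 per kb from 150 to 400 nt. The lack was not seen at every edge. Among stop codon peaks, the 20 nt just before the last junction held 3.34 and 1.64 summits per kb, against 0.798 and 0.439 in the 20 nt before them. The part of read extension in the positions that follow was not tested. The summit density by class of distance from the last junction to the stop codon is therefore also given away from edges. These are bases at least 123 nt (replicate 1) or 141 nt (replicate 2) from any exon edge. They exclude every base less than 100 nt after the last junction. The ratio of densities divided at 100 nt after the junction therefore has no such value, nor have the other comparisons.

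**Figure D1:**
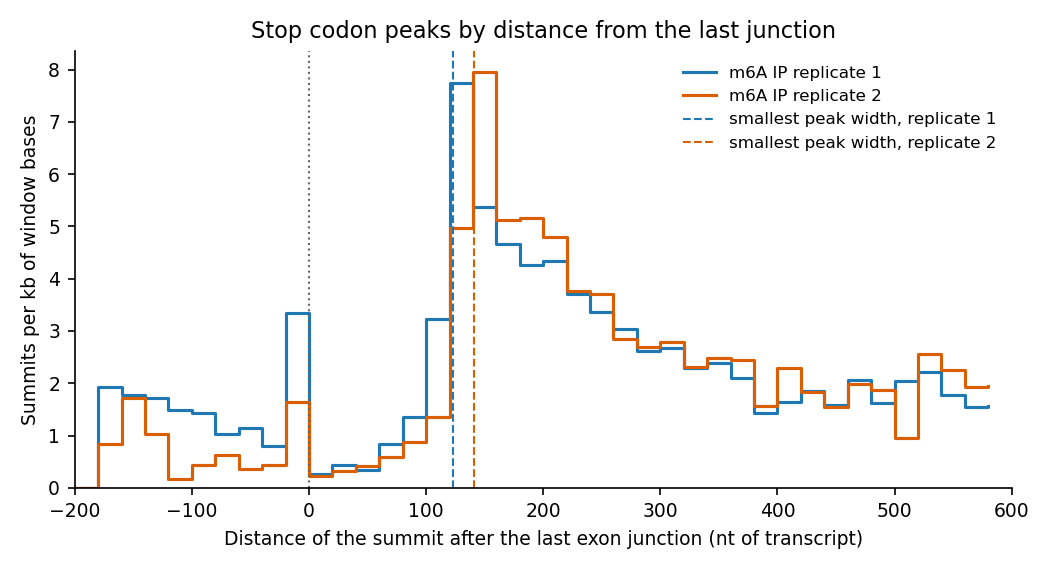
Summits of stop codon peaks per kb of window bases (y axis) in bins of 20 nt by distance after the last junction (x axis), for genes with the stop codon in the last exon. Lines are the 2 replicates and dashed lines mark the smallest peak width of each list, 123 and 141 bp. Summits are few in the first 100 nt of the last exon and most frequent at 120 nt in replicate 1 and 140 nt in replicate 2.

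The place of the summit relative to the stop codon was compared between junction classes. The summit moved from the 3′ UTR into the CDS as the last junction lay farther upstream. With the last junction under 50 nt before the stop codon, the median summit lay 94 nt after the stop codon in replicate 1 (224 peaks) and 112 nt after it in replicate 2 (127 peaks). With the junction 50 to 99 nt upstream, the medians were 59.5 and 81.5 nt, and at 100 to 200 nt they were 25.5 and 38 nt. At 200 to 400 nt the medians lay before the stop codon, at −44 and −39.5 nt. At 400 to 800 nt they were −97 and −96 nt, and at 800 nt or more −74 and −81 nt. The order of the first 5 classes was thus the same in both lists, and the difference between stop codons less than 100 nt and 400 nt or more after the junction was 156 nt in replicate 1 and 183 nt in replicate 2 (mean 169.5 ± 19.1 nt, SD, n = 2). Both CDS and 3′ UTR offered about the same number of window bases, between 49.9% and 51.3% on the CDS side in every class. Bases away from exon edges were less evenly spread, counted in genes with any exonic summit. At 50 to 99 nt they made up 71.2% and 63.4% of 3′ UTR bases but 34.95% and 31.1% of the whole window. Under 50 nt they made up 2.88% and 2.09% of CDS bases. At 400 to 800 nt they made up 97.4% and 97.5% of CDS bases and 94.3% and 93.8% of 3′ UTR bases. Of the summits, 76.96% and 76.4% lay on the CDS side in the class of 400 to 800 nt, and 21.5% and 11.5% in the class of 50 to 99 nt. The part of this room in the shift was not tested.

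Counted from the junction instead of the stop codon, the medians of the 3 closest classes lay near each other. They were 126.5, 135.5 and 173 nt after the last junction in replicate 1, and 141, 154 and 184 nt in replicate 2. The most frequent bin of 50 nt in these classes followed the junction as well. It began 100 nt after the stop codon for junctions under 50 nt upstream (6.05 and 7.81 summits per kb), 50 nt after it for junctions 50 to 99 nt upstream (6.496 and 6.82), and at the stop codon for junctions 100 to 200 nt upstream (5.18 and 5.81). For junctions 200 to 400 nt upstream it began 100 nt before the stop codon, with 4.43 and 4.33 summits per kb.

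Where the last junction was 800 nt or more upstream, the whole window lay far inside 1 exon. The summit density there fell steadily across the stop codon, from 4.41 and 4.35 per kb in the 50 nt farthest before it to 2.62 and 2.82 in the last 50 nt of CDS, 1.87 and 1.92 in the first 50 nt from the stop codon on, and 1.23 and 1.02 at 150 to 200 nt after it. No maximum at the stop codon itself was seen in this class in either list.

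**Figure D2:**
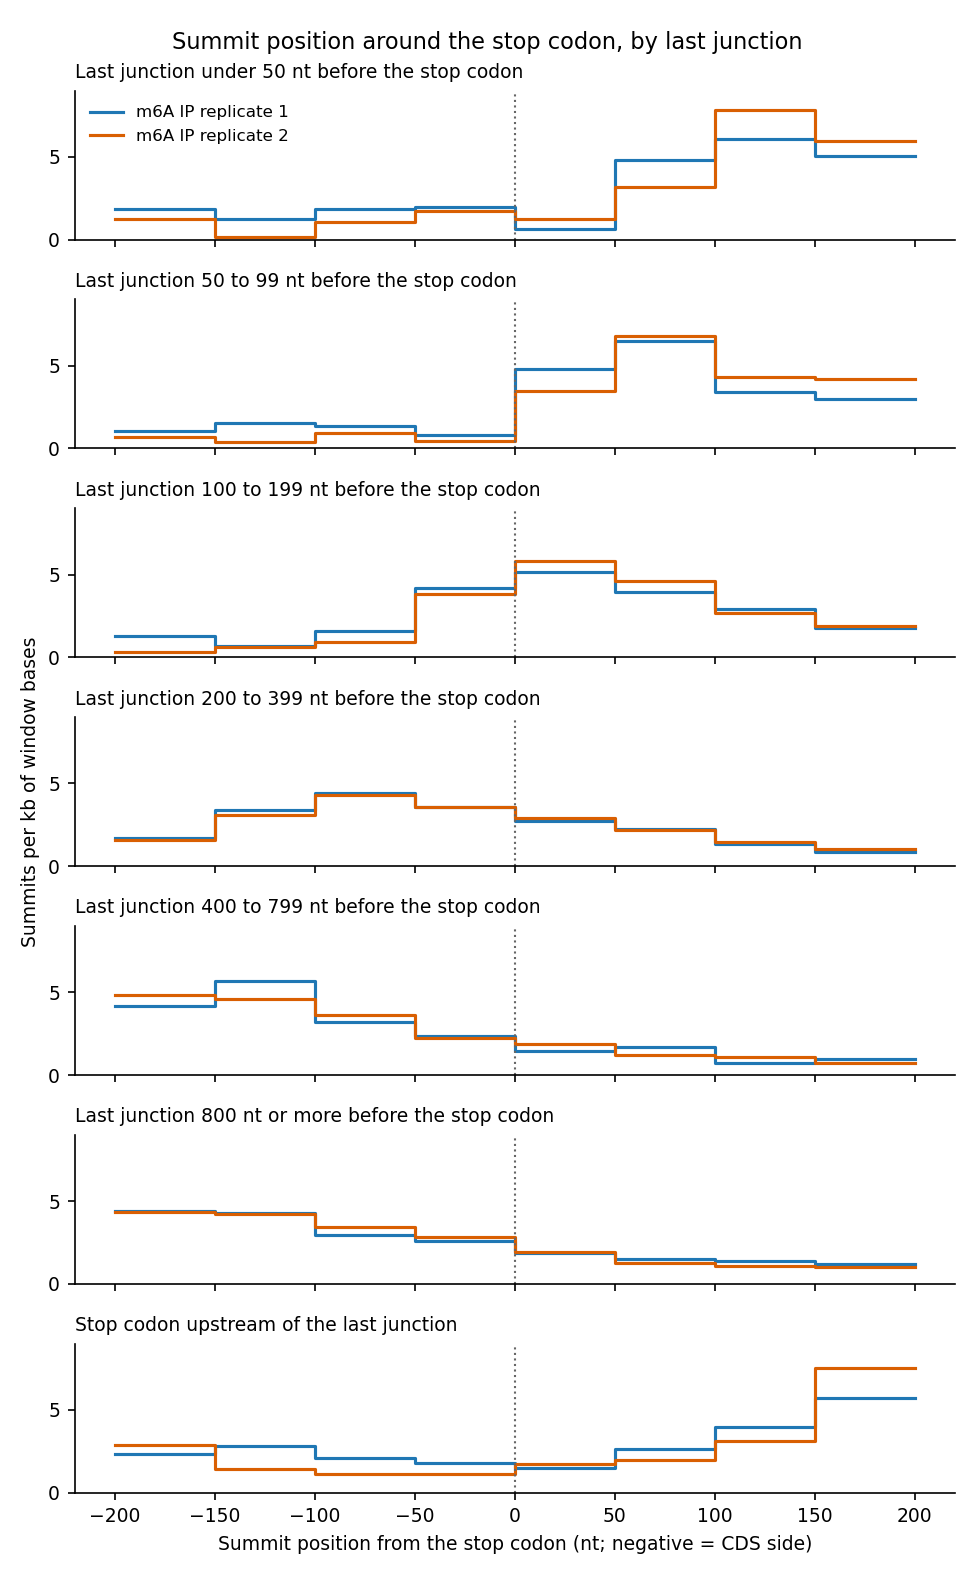
Summits of stop codon peaks per kb of window bases (y axis) by position from the stop codon in bins of 50 nt (x axis, negative values in the CDS). Each panel is 1 junction class and each line 1 replicate. The most frequent bin moves from 100 nt after the stop codon, for junctions under 50 nt upstream, to 100 nt before it, for junctions 200 to 400 nt upstream.

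The density of summits was then set against the distance from the last junction. In the last exon, bases 100 nt or more after the junction held 3.21 summits per kb in replicate 1 and 3.17 in replicate 2. Bases less than 100 nt after it held 0.676 and 0.510 per kb, a ratio of 4.75 and 6.22 (mean 5.48 ± 1.04, SD, n = 2). Over the windows of all eligible genes with any exonic summit it was 4.90 and 6.47. Divided at 200 nt, the mean ratio was 0.856, since the density was highest between 100 and 200 nt. On the CDS side the ratio was 6.72 and 9.25, and on the 3′ UTR side it was 2.03 and 1.83, where only 31 and 21 summits lay under 100 nt. In the exon before the last, the 50 nt next to the junction held 1.99 and 0.949 summits per kb, more than the 0.342 and 0.311 in the first 50 nt after it.

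Because the distance from the junction and from the stop codon move together, bases at the same place relative to the stop codon were compared. Genes chosen for a stop codon peak hold about 1 summit a window, so that summits missing from some bases raise the density of others. The values that follow therefore count the windows of all eligible genes with any exonic summit in the list. This lessens the choice but does not remove it. Of the 3863 and 2868 genes with a stop codon peak, 2536 and 1483 also had an exonic summit elsewhere, and the others enter through that peak alone. In the first 50 nt from the stop codon on, bases less than 100 nt after the last junction held 0.407 and 0.477 summits per kb. Bases at the same place but 100 to 200 nt after the junction held 2.77 and 2.65, and those 200 nt or more after it 1.35 and 1.34. In the last 50 nt of CDS the same 3 values were 0.417, 2.71 and 1.46 in replicate 1 and 0.240, 2.32 and 1.40 in replicate 2. In the 50 nt that begin 150 nt before the stop codon they were 0.206, 2.87 and 2.11 in replicate 1 and 0.236, 2.32 and 1.78 in replicate 2. Bases 100 to 200 nt after the junction held the most summits per kb in these 3 places in both lists, and the smallest peak width of each list falls within this range. Over all eligible genes, the values in the first 50 nt from the stop codon on were 0.147, 1.17 and 0.668 in replicate 1. In replicate 2 they were 0.126, 0.815 and 0.584, and the order was the same in the other places.

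On bases away from every exon edge, summits became fewer with the distance of the stop codon from the last junction. These values count the windows of all eligible genes with any exonic summit in the list, some of which enter through their stop codon peak alone. In the 3′ UTR after the stop codon the density was 2.38 and 2.04 summits per kb for junctions under 50 nt upstream, 1.97 and 1.92 at 50 to 99 nt, and 1.89 and 1.90 at 100 to 200 nt. It was 1.27 and 1.29 at 200 to 400 nt, 0.641 and 0.622 at 400 to 800 nt, and 0.473 and 0.373 at 800 nt or more. In the CDS before the stop codon it fell from 3.04 and 3.50 at 100 to 200 nt through 2.80 and 2.77 and 1.963 and 1.87 to 1.06 and 0.991 at 800 nt or more. Within each class from 100 nt on, the CDS side held more summits per kb than the 3′ UTR side in both lists. The share of these bases with GGAC within 50 nt moved in the same direction, from 36.3% and 36.5% in the 3′ UTR at 100 to 200 nt to 26.5% and 26.6% at 800 nt or more, and from 44.3% and 44.7% to 33.2% and 33.4% in the CDS. Each peak counts as 1 summit whatever its width. The median width of stop codon peaks was 266 and 296 bp for junctions under 50 nt upstream and 593 and 608 bp at 800 nt or more. The distance from exon edges used here falls, in each list, within the bin where summits after the last junction were densest. For junctions under 50 nt upstream, the 3′ UTR bases that remain lie in that bin or soon after it. At 800 nt or more they lie far beyond it. The part of this position, of the motif or of the width in the result was not tested.

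**Figure D3:**
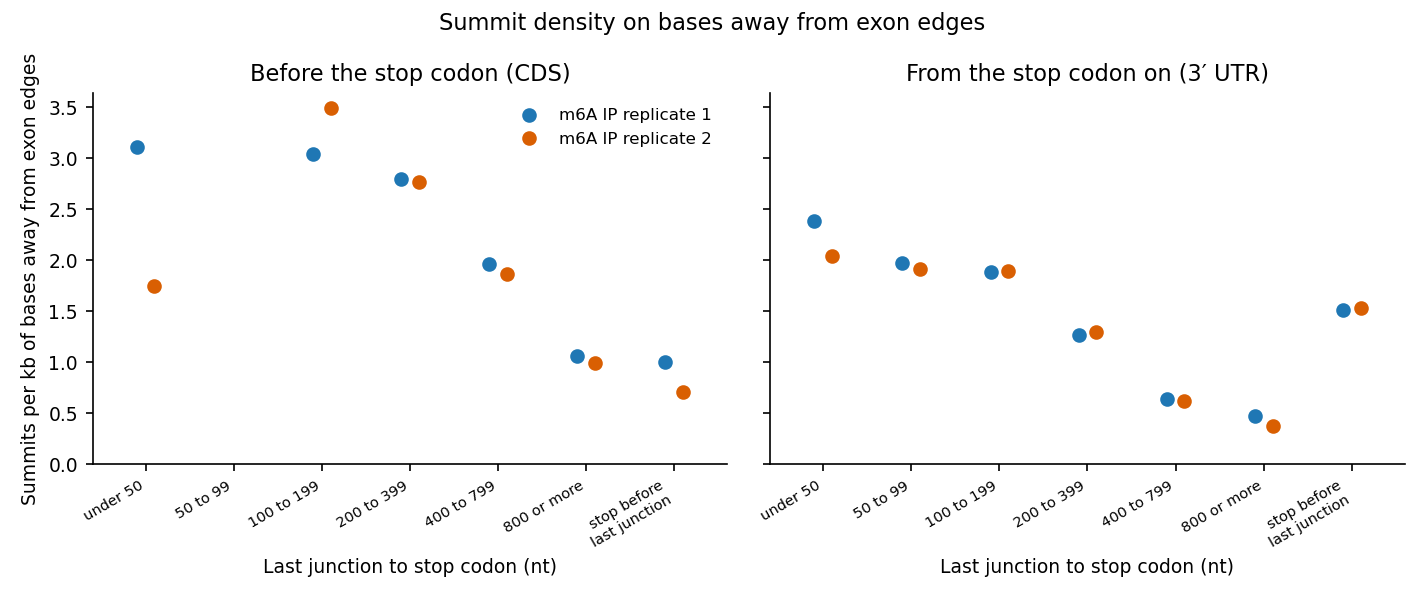
Summits of stop codon peaks per kb of window bases at least 123 nt (replicate 1) or 141 nt (replicate 2) from any exon edge (y axis), by junction class (x axis), before the stop codon on the left and from the stop codon on at the right. Points are the 2 replicates. Both sides fall from 100 to 200 nt to 800 nt or more, while the CDS point for junctions under 50 nt upstream rests on 10 and 3 summits.

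Next, the GGAC motif was searched on the strand of the gene, in spliced transcript. GGAC lay within 50 nt of 54.4% (interval 52.8% to 55.9%) of the stop codon summits in replicate 1 and 55.4% (53.6% to 57.2%) in replicate 2. Of all window bases of the same genes, 43.9% and 44.8% had GGAC within the same distance. With the stop codon in the last exon, this share was 50.3% and 50.95% in the 50 nt that begin 100 nt after the last junction, where summits were frequent. At 600 nt or more after the junction it was 35.67% and 37.45%. The summits were not compared with bases matched for position. Between junctions less than 100 nt and 400 nt or more upstream, the share of summits with GGAC differed by −2.92 percentage points (−8.01 to 2.20) in replicate 1. In replicate 2 it differed by −3.95 points (−10.02 to 2.20). The far class was the lower and both intervals included 0. The window bases themselves differed more, with 45.8% and 47.4% in the near class and 39.4% and 40.8% in the far class.

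The same motif had a summit less often close to the junction. Of GGAC motifs in genes with any exonic summit, 8.69% (interval 7.68% to 9.82%) of 2669 less than 100 nt after the last junction and 24.5% (23.7% to 25.3%) of 10740 farther from it had a summit of a stop codon peak within 50 nt in replicate 1. In replicate 2 the shares were 5.26% (4.37% to 6.31%) of 2055 and 22.8% (21.9% to 23.6%) of 9114. In the genes with a stop codon peak alone they were 15.9% and 39.5% in replicate 1 and 10.6% and 38.4% in replicate 2. Some of the genes with any exonic summit had no exonic summit other than that peak. Near the junction, 43.4% of window bases at 0 to 49 nt and 46.9% at 50 to 99 nt had GGAC within 50 nt in replicate 1. These shares were below the 50.3% at 100 to 149 nt but above the 35.67% at 600 nt or more. Genes with a stop codon peak and a last junction 400 nt or more upstream have no window base near the junction. Among these genes alone, GGAC before the stop codon had a summit more often than GGAC after it. The shares were 42.99% (39.9% to 46.2%) of 942 and 21.2% (18.3% to 24.5%) of 678 motifs in replicate 1, and 38.5% (35.2% to 41.8%) of 840 and 20.8% (17.7% to 24.1%) of 612 in replicate 2.

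The share of genes with a stop codon peak was largest at intermediate distances. Among eligible genes with any exonic summit, 47.1% had a stop codon peak in replicate 1 and 43.5% in replicate 2. This share was 34.7% (interval 30.8% to 38.7%) and 27.8% (23.7% to 32.3%) with the last junction under 50 nt upstream. It was 39.5% and 34.6% at 50 to 99 nt, 51.3% and 48.5% at 100 to 200 nt, and 65.9% (63.6% to 68.2%) and 63.2% (60.6% to 65.8%) at 200 to 400 nt. Beyond that it was 50.6% and 48.4% at 400 to 800 nt and 29.7% (27.0% to 32.5%) and 26.3% (23.7% to 29.2%) at 800 nt or more. The bases of the window that lay away from exon edges made up 24.6% and 20.8% in the closest class, 80.7% and 77.1% at 200 to 400 nt, and 96.95% and 96.5% at 800 nt or more. The share of genes and the room in the window thus rose together up to 200 to 400 nt, and only the room rose beyond it.

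Since a gene can enter these counts through its stop codon peak alone, the share was also taken among genes with an exonic summit elsewhere, where 37.5% and 29.0% had a stop codon peak. It was again largest at 200 to 400 nt, with 57.3% and 46.3%, and was 27.2% and 18.1% under 50 nt and 26.2% and 21.1% at 800 nt or more. The order of the other classes changed in part, since in replicate 2 the class under 50 nt was above that of 800 nt or more among genes with any exonic summit and below it here. Between the ends of the range, less than 100 nt and 400 nt or more, the difference among genes with any exonic summit was 1.34 points (−1.87 to 4.54) and 3.89 points (0.406 to 7.33), the far class being the higher. Among genes with an exonic summit elsewhere it was 3.92 points (0.671 to 7.13) and 6.09 points (2.74 to 9.34). In a window of 100 nt, among genes with any exonic summit, it was −4.54 points in replicate 1 and 0.467 points in replicate 2.

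**Figure D4:**
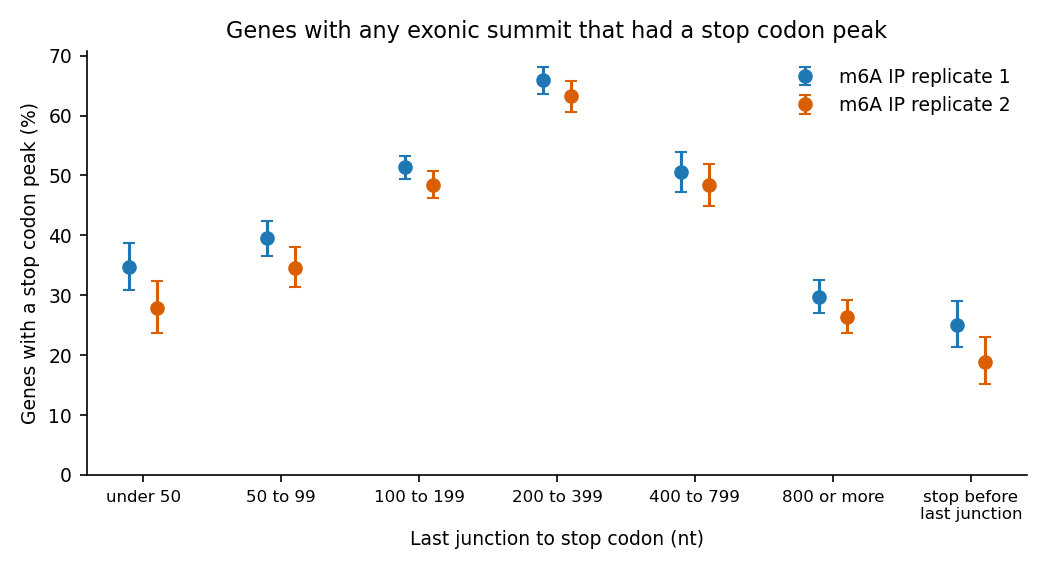
Percent of eligible genes with any exonic summit that had a stop codon peak (y axis), by junction class (x axis). Points are the 2 replicates and bars are 95% Wilson intervals. The share is highest at 200 to 400 nt, with 65.9% and 63.2%, and lowest where the stop codon lies before the last junction, with 25% and 18.8%.

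Fold enrichment, the authors' ratio of the summit over the background of the peak caller, was then compared between classes. The median over stop codon peaks was 5.46 in replicate 1, with quartiles of 3.76 and 8.32, and 4.71 in replicate 2, with quartiles of 3.32 and 6.80. The other exonic peaks had 5.24 and 4.86. Peaks with the last junction less than 100 nt upstream had medians of 4.77 and 4.15, those at 100 to 400 nt 5.33 and 4.50, and those at 400 nt or more 7.73 and 6.06. The ratio of the closest to the farthest class was 0.617 and 0.685 (mean 0.651 ± 0.0479, SD, n = 2). The quartiles overlapped between classes, for example 3.28 to 6.97 in the closest and 5.22 to 10.96 in the farthest class of replicate 1. Peak width moved with fold enrichment, from a median of 270 and 296 bp in the closest class to 593 and 556 bp in the farthest, and its part in the result was not tested. Of the peaks with the summit in the last exon, 45.3% and 36.5% reached past the start of that exon on the genome when the junction was under 50 nt upstream, and 9.21% and 7.63% when it was 800 nt or more upstream.

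The overlap between the lists followed the same classes in replicate 1. A stop codon peak of replicate 1 overlapped a peak of replicate 2 by at least 1 bp in 70.9% of cases, and a stop codon peak of replicate 2 overlapped one of replicate 1 in 97.2%. Over all exonic peaks these shares were 60.2% and 95%. In replicate 1 the share was 59.9% (interval 56.2% to 63.5%) with the junction less than 100 nt upstream and 83.6% (80.8% to 86.1%) at 400 nt or more, a difference of 23.7 points (19.2 to 28.1). In replicate 2, where nearly every peak was shared, it was 96.1% and 98.6%, a difference of 2.49 points (0.565 to 4.90). A total of 2528 genes had a stop codon peak in both lists, which was 65.4% of the replicate 1 genes and 88.2% of the replicate 2 genes.

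The position of a peak differed little between the lists. Across 2531 pairs of stop codon peaks in the same gene that were each other's largest overlap, the summits lay a median of 20 nt apart, and 80.7% lay within 50 nt. The median distance ranged from 14.5 nt for junctions under 50 nt upstream to 24 nt for junctions 800 nt or more upstream. Replicate 1 had the higher fold enrichment in 82.3% of these pairs, and the log2 ratio of replicate 1 to replicate 2 had a median of 0.46. By class the median was 0.46, 0.47 and 0.46 in the classes of less than 100 nt, 100 to 400 nt and 400 nt or more.

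**Figure D5:**
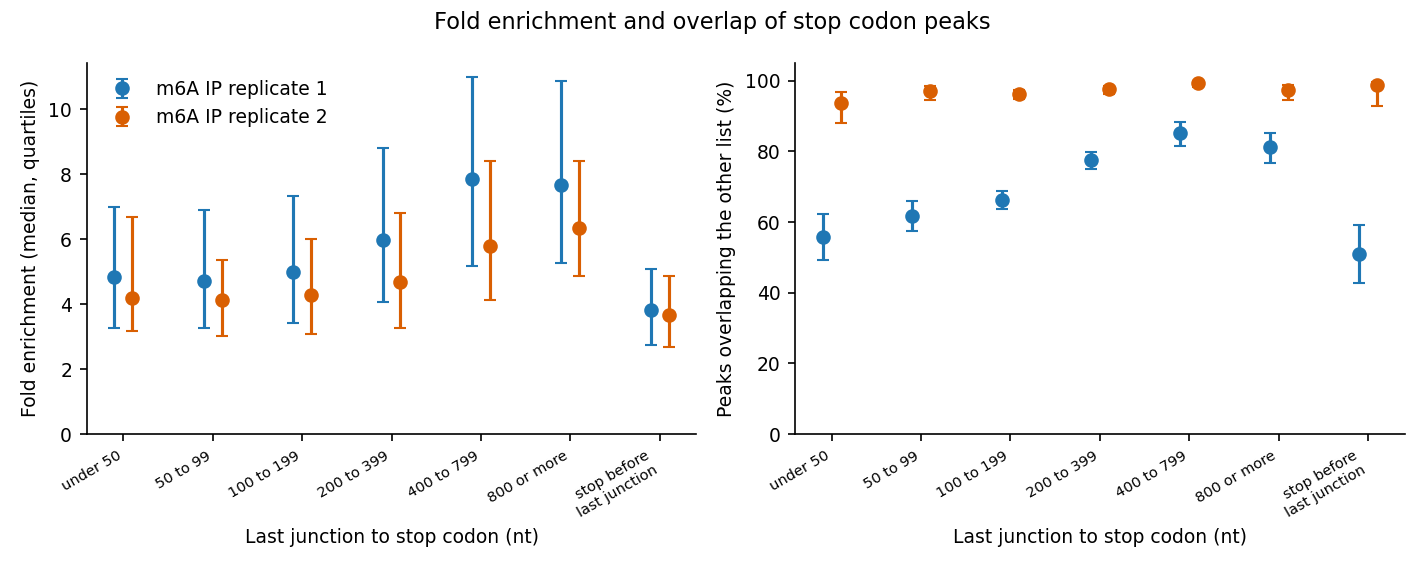
Fold enrichment of stop codon peaks (left, median with quartiles) and percent of stop codon peaks that overlap the other list (right, with 95% Wilson intervals), by junction class (x axis). Points are the 2 replicates. Median fold enrichment is 7.85 and 5.81 at 400 to 800 nt and 3.82 and 3.67 where the stop codon lies before the last junction.

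The stop codon was in the last exon for 3915 stop codon peaks of replicate 1, or 96.6% (interval 95.97% to 97.1%), and 2850 of replicate 2, or 97.5% (96.8% to 97.98%). Of the eligible genes 92.95% had it there, and of the genes with any exonic summit 94.1% and 94.4%. For the remaining 139 and 74 peaks, in 122 and 70 genes, the stop codon lay upstream of the last junction. Among genes of this kind with any exonic summit, 25% (21.4% to 29.0%) had a stop codon peak in replicate 1 and 18.8% (15.2% to 23.1%) in replicate 2. This was 23.5 points (19.3 to 27.3) and 26.2 points (21.8 to 30.1) below genes with the stop codon in the last exon. Among genes with an exonic summit elsewhere, the gap was smaller, at 19.02 points (14.72 to 22.78) and 16.12 points (11.64 to 19.77). Where the stop codon lay upstream, bases away from exon edges made up 21.7% and 20% of the windows. On those bases the 3′ UTR side held 1.52 and 1.53 summits per kb, and the CDS side 0.999 and 0.708, from 15 and 8 summits. Both sides together held 1.33 and 1.22 per kb, against 2.425 and 2.03 in the last-exon class of under 50 nt. That class had similar room, 24.6% and 20.8%, and 34.7% and 27.8% of its genes had a stop codon peak. At 800 nt or more the share of genes was 29.7% and 26.3%. The difference in the share of genes was thus smaller against these classes than against all genes with the stop codon in the last exon.

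Most of these stop codons lay close before the last junction. The median distance was 37 and 40.5 nt, and 50 and 28 peaks had the last junction more than 55 nt after the stop codon, the usual distance for nonsense-mediated decay. The summit lay in the exon of the stop codon for 52 and 30 peaks, in a later exon for 60 and 35, and in an earlier exon for 27 and 9. The last exon held 38.1% and 44.6% of the summits and 28.7% and 29.3% of the window bases. Median fold enrichment was 3.82 and 3.67, the lowest of the 7 classes in both lists. In the annotation's canonical transcript, 19 and 13 of these peaks belong to a gene with the stop codon in the last exon, so that their class depends on the transcript chosen.

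The strongest peaks of each class in both lists were then looked up in single genes. They were ranked by the geometric mean of fold enrichment over the lists, so their height is a description of the choice. Among genes with the last junction less than 100 nt upstream, VSTM5 (an immunoglobulin domain membrane protein) led, with a peak at chr11:93819872-93820759 in replicate 1. Its fold enrichment was 21.9 in replicate 1 and 11.3 in replicate 2, and its summits lay 186 and 183 nt after the stop codon. RALGPS2, an exchange factor for Ral GTPases, followed with 20.99 and 11.4 and summits 94 and 143 nt after the stop codon. SLC25A30, a mitochondrial carrier, had 14.2 and 12.0 with summits at 167 and 129 nt, and no GGAC lay within 50 nt of either. STPG1 had 14.2 and 10.9 with summits at 197 and 187 nt. SUSD6 (19.8 and 8.50) was the exception among the 5, with summits 168 and 175 nt before the stop codon, in an earlier exon 145 and 152 nt before the last junction. Counted from the last junction, the summits lay 227 and 224 nt after it in VSTM5 and 121 and 170 nt in RALGPS2. They lay 206 and 168 nt after it in SLC25A30 and 271 and 261 nt in STPG1. The medians of the class were 131 and 150 nt.

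With the last junction 100 to 400 nt upstream, MARCHF9, a membrane-bound ubiquitin ligase, had a fold enrichment of 30.4 and 16.5. Its summits lay 154 and 149 nt before the stop codon, which is 178 and 183 nt after the last junction. NALF1, an accessory factor of the NALCN sodium channel, had 30.04 and 13.1 with summits 154 and 144 nt after the junction. OSR1, a zinc finger transcription factor, had 29.7 and 12.1 with summits 165 and 156 nt after it. ACVR1, a type I receptor for bone morphogenetic proteins, had 18.9 and 17.5, with summits 227 and 225 nt after the junction, in the 3′ UTR. WDR91, a regulator of endosome maturation, had 20.4 and 18.7, with summits 304 and 338 nt after the junction. In 3 of these 5 genes the summits of both lists thus lay between 144 and 183 nt after the junction.

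With the last junction 400 nt or more upstream, the 5 leading genes all had their summits in the CDS in both lists. MAP3K9, a kinase upstream of the JNK pathway, had a fold enrichment of 26.95 and 20.9 with summits 193 and 171 nt before the stop codon. MYO9A, an unconventional myosin with a RhoGAP domain, had 14.7 and 31.8, with summits 124 and 166 nt before it. PLA2G15, a lysosomal phospholipase, had 25.1 and 14.8 with summits 69 and 17 nt before it. TMEM186 had 19.6 and 18.8, and TP53RK, a kinase of the KEOPS complex, had 18.4 and 19.99, and both of these genes have only 2 exons in the transcript used. MYO9A and TP53RK were the ones with the higher value in replicate 2.

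Among genes with the stop codon before the last junction, PDGFA led, a growth factor of the platelet-derived family. Its fold enrichment was 9.57 and 12.9, and its summits lay in the last exon, 133 and 144 nt after the last junction, which is 16 nt after the stop codon. FOXO3, a forkhead transcription factor with the stop codon in exon 3 of 4, had 6.65 and 7.46. Its summits lay 131 and 133 nt after the last junction and 168 and 170 nt after the stop codon. PLCE1, a phospholipase C, had 6.34 and 7.70 with summits 158 and 140 nt after the junction. In these 3 genes the summits lay in the last exon although the stop codon did not.

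LPCAT1, USP42, TAFAZZIN, KCNH4 and PIGO had their summits before the last junction. LPCAT1, an acyltransferase of phosphatidylcholine remodelling, had 17.1 and 5.65 with summits 24 nt after and 5 nt before the stop codon, 2278 nt upstream of the last junction. USP42, a deubiquitinase, had 15.4 and 4.67 with summits at −181 and −148 nt from the stop codon. TAFAZZIN, which remodels cardiolipin, had 8.79 and 6.37, KCNH4, a potassium channel, 6.31 and 8.53, and PIGO, an enzyme of GPI anchor synthesis, 11.7 and 3.63. For LPCAT1, TAFAZZIN, PIGO and PDGFA the canonical transcript has the stop codon in its last exon. SPDYE6 (5.002 and 7.70) and SPDYE2B (6.06 and 4.78) belong to a family with near-identical copies, the former with summits 52 and 34 nt after the last junction and the latter with summits before it, so the gene of their peaks is uncertain.

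The genes of the exon junction complex and of nonsense-mediated decay were looked up in the same way. Of 10 genes of the exon junction complex, 2 had a stop codon peak in replicate 1 and 1 in replicate 2, beside 20.6% and 15.3% of all eligible genes. ACIN1, a peripheral component, had a fold enrichment of 4.79 and 2.67, with summits 153 and 144 nt after the last junction. RNPS1 had one in replicate 1 alone, at 1.85. The core genes EIF4A3, RBM8A, MAGOH, MAGOHB and CASC3 had none. Among genes of nonsense-mediated decay, SMG1, the kinase that phosphorylates UPF1, had a fold enrichment of 6.65 and 4.75. Its last junction is 75 nt before the stop codon, and its summits lay 166 and 144 nt after the stop codon. UPF3A, a UPF1 cofactor, had 2 stop codon peaks in each list, with the strongest at 4.68 and 3.86. These 2 lay at different places. The summit was 1 nt before the stop codon and 125 nt after the last junction in replicate 1. In replicate 2 it was 145 nt before the stop codon and 19 nt before the junction. UPF1 itself, whose stop codon lies 6 nt before the last junction, had none.

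Of the cell cycle genes that the study followed, CDC25A, a phosphatase of the G1-S transition, has its last junction 138 nt before the stop codon. Its summits lay 125 and 145 nt after that junction, with a fold enrichment of 12.5 and 3.85. E2F1, a transcription factor of the same transition, has its last junction 245 nt before the stop codon, and its summits lay 131 and 136 nt after the junction, with 6.89 and 3.01. In both genes the summits were thus about as far from the junction, although they lay 13 nt before and 7 nt after the stop codon in CDC25A and 114 and 109 nt before it in E2F1. CDK4 had no stop codon peak in either list.

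At the border of the window, 177 and 109 summits lay 190 to 200 nt from a stop codon, with a median fold enrichment of 5.13 and 4.92, and 112 and 92 summits lay in the next 10 nt outside the window, with 5.83 and 5.75. A summit lay in exons of 2 or more genes for 9.55% and 9.13% of the stop codon peaks, and since the lists carry no strand, the gene of those peaks is uncertain.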

How the data were processed

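Per the methods of the study, reads were mapped to hg38 with TopHat2 and the authors called peaks with MACS2 at default settings, 1 list per sample; the submitters' processing notes list fastp, HISAT2 and MACS2. Versions, and whether the input served as control, are not given in the sources used here. The authors deposited each peak's fold enrichment (a ratio to the caller's background) with −log10 of its p-value and q-value. The deposited score was not used. Depth is unknown.

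Summits were placed on spliced GENCODE version 44 transcripts (GRCh38, the same build). Position 0 was the first base of the stop codon, and a stop codon was in the last exon if its last base was. Of 20046 genes with a CDS, 1144 had 1 exon and 164 no annotated stop codon. Where windows of several genes held a summit (54 and 40 peaks), the nearest stop codon was used. Density is summits per kb of window bases of genes with a stop codon peak, unless stated. Genes named were the 5 with the highest geometric mean fold enrichment in each of 3 distance classes, among peaks that overlapped between the lists and matched 1 gene, 10 where the stop codon lay upstream, 2 lists of 10 genes, and CDC25A, CDK4 and E2F1. A gene of these lists and a sequence are not reported here. The comparisons by exon edge and over all genes with an exonic summit were added after the summit positions were seen. The members and lists were chosen with earlier results of these data known.

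The scripts were tested on simulated data. Python 3.11.15, numpy 2.4.6, pandas 2.3.3 and matplotlib 3.10.9 were used.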

Additional observations from a re-analysis of the deposited data

How the results depend on the processing

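Values here are means of the 2 lists. Over all results and alternatives, 41 values moved by less than the spread between replicates (for counts, by less than 1.5 times), 20 moved by more and 3 turned direction. These numbers do not count values with 1 replicate left out, which are those of the other list and, with 2 lists, say nothing of stability. The number of stop codon peaks, 3489, was 1822 at a fold enrichment of 5 or more and 2086 in a window of 100 nt. The share with the stop codon in the last exon, 97.0%, was 98.6% at that fold enrichment, 98.4% in the narrower window and 97.7% for summits in exons of 1 gene. The density ratio of 5.48 was 7.37 at that fold enrichment, 3.62 with peak midpoints, 6.98 with shared peaks and 9.07 when divided at 50 nt. It turned to 0.856 when divided at 200 nt and, on bases 150 nt or more after the junction divided at 300 nt, a choice made after seeing the data, to 0.532, so that the density rose and then fell with distance. The shift of 169.5 nt was 189 nt at that fold enrichment, 86.8 nt in the narrower window and 192 nt with a limit of 50 nt. The gene share difference of 2.62 points was 7.57 at that fold enrichment, −2.04 in the narrower window (−4.54 in replicate 1 and 0.467 in replicate 2) and 5.005 among genes with a summit outside the window, also chosen after seeing the data. GGAC near the summit, 54.9%, was 56.6% at that fold enrichment, 52.1% with midpoints, 56.0% with shared peaks, 33.0% within 25 nt and 76.6% within 100 nt. The fold enrichment ratio of 0.651 was 0.849 at a fold enrichment of 5 or more. With single lists, the density ratio was 4.75 and 6.22 and the gene share difference 1.34 and 3.89 points. No paired analysis was possible because no peak list of the input was analysed here and no result comes from a test. The lists hold no read numbers, so what depth limits could not be measured.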

Other observations

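Features of the genes with a stop codon peak that the choice did not use are given here as values, with no test. Their 3′ UTR after the stop codon had a median length of 1454 nt in replicate 1 and 1586.5 nt in replicate 2, against 953 nt over all eligible genes and 1322.5 and 1468 nt over genes with any exonic summit. Their stop codon was TGA in 55.7% and 54.6%, TAA in 21.4% and 22.0% and TAG in 22.9% and 23.4% of genes, where genes with any exonic summit had TGA in 52.99% and 52.3% and TAA in 24.3% and 24.5%. The median number of exons was 9 in the genes with a stop codon peak and in those with any exonic summit, and 8 over all eligible genes. In replicate 1, 187 genes had 2 or more stop codon peaks, 4 of them 3 peaks, and in replicate 2, 56 genes had 2 peaks. In the exon before the last, the bin of 20 nt that ends at the junction held 3.34 summits per kb in replicate 1 and 1.64 in replicate 2, against 0.798 and 0.439 in the bin before it.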
